A study of Mus musculus with 9 samples.

Results

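The genes described here are 7 members of the RAS-RAF-MAPK cascade that bear on glioma of the optic pathway and hypothalamus, taken by symbol from the 18329 rows of the normalized expression table, which held all 7. They are Nf1, the small GTPase genes Hras and Nras, the kinase genes Braf and Araf, the MEK gene Map2k1 and the ERK gene Mapk3. Their levels were measured by RNA sequencing in neuroglial progenitor cells of the TVZ (the third ventricular zone), a germinal layer beside the third ventricle. All 9 libraries came from Nestin-CFPnuc mice on a C57/BL6 background, harvested at postnatal day 1 and given no treatment, in which the Nestin promoter drives cyan fluorescent protein (CFP). Cells were sorted on CFP and on the surface protein CD133 into CD133+, Nestin+ and CD133+Nestin+ populations, with 3 libraries each. The labels name no Nf1 mutation in these 9 samples, so each level is that of unmutated progenitors as far as the labels say. The reporter marks cells by the activity of the Nestin promoter alone, and the labels give no number of animals per sort.

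In the RAS cascade, receptors on the cell surface load RAS proteins with GTP, and GTP-bound RAS recruits RAF kinases, which phosphorylate MEK, which in turn phosphorylates ERK. Neurofibromin, the product of Nf1, is a GTPase-activating protein that returns RAS to its inactive, GDP-bound form. People with neurofibromatosis type 1 carry a germline NF1 mutation and can develop low-grade glioma of the optic pathway, and sporadic low-grade gliomas often carry a fusion or point mutation of BRAF.

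The loci differ in size and in what overlaps them. In GENCODE M21 on GRCm38, Nf1 spans chr11:79339693-79581612 on the forward strand, 241920 bp with 15850 bp of exon. Its introns hold Omg, Evi2, Evi2b and Evi2a on the reverse strand, with 0 bp of shared exon. Hras lies at chr7:141189105-141194005 (reverse), Nras at chr3:103058285-103067914 (forward), Braf at chr6:39603237-39725463 (reverse), Araf at chrX:20797814-20860519 (forward), Map2k1 at chr9:64185770-64253631 (reverse) and Mapk3 at chr7:126759601-126765819 (forward). Exons of Braf and of the mitochondrial complex I gene Ndufb2, on the other strand, share 146 bp, and exons of Araf and the synapsin gene Syn1 share 9 bp. How the counting treated strand was not given in the sources used here, and reads in these shared stretches cannot be assigned to either gene.

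Promoter sequence is shown for the genes around which the values below turn: Nf1, the genes inside it, and the RAF pair Braf and Araf. Each line comes from the window just upstream of the RefSeq start (GRCm38.p6), 5′ to 3′ on the gene's strand and outside GENCODE exons, with CG dinucleotides (CpG, the same letters on both strands) in capitals. The Nf1 line stops at the GENCODE start, because the RefSeq start lies further downstream, and the rest of that window, inside GENCODE Nf1, is not printed. The Evi2 window is at chr11:79530610-79530859 and directly adjoins the 5′ end of Evi2a in GENCODE, so the Evi2 line serves for both. The windows are chr11:79339642-79339692 (Nf1, forward), chr11:79523763-79524012 (Evi2b, reverse), chr6:39725464-39725713 (Braf, reverse) and chrX:20848293-20848542 (Araf, forward).
Nf1: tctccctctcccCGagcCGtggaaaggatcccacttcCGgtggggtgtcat
Evi2b: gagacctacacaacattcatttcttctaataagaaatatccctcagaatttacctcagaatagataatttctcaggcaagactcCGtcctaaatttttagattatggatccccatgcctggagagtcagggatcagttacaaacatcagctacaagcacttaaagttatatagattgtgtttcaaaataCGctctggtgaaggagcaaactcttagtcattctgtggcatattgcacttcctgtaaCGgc
Evi2: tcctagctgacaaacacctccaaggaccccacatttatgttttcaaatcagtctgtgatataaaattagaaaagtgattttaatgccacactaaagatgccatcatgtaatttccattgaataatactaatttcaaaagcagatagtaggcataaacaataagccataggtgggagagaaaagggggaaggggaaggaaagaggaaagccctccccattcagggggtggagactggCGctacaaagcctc
Braf: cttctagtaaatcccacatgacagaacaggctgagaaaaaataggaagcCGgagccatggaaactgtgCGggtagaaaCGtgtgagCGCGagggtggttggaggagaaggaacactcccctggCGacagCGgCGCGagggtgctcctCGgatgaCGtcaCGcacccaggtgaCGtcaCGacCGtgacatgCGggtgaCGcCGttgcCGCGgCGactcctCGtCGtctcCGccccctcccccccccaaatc
Araf: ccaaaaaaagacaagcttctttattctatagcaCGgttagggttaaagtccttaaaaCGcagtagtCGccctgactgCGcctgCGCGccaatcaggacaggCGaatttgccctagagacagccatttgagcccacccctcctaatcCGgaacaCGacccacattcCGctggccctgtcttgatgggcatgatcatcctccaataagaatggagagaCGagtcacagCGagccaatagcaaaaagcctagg

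In the full 250-base windows, Nf1 held 21 CpG, which 16.4% of 32841 mouse promoters matched or exceeded, and Braf held 24 (12.0%). Araf held 12 (33.5%), Hras and Map2k1 24 each, and Nras 14. The median over all promoters was 6. Evi2b held 3 (71.0%) and Evi2 held 1 (92.1%), so these nested genes lay below the median and the 6 members matched by symbol above it. Mapk3, Omg and Evi2a had no entry. CpG content is a description of these letters only, and methylation was not measured.

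Values are CPM (read counts scaled to a fixed library total), a unit inferred from the deposited table, in which 1 read was worth 0.0286 to 0.0344 CPM. That corresponds to 29100000 to 35000000 reads per library, so Hras, the member with the fewest reads, rested on 96.7 to 513 read equivalents and the other members on more. The listed genes held 65.9% to 87.6% of the CPM total, with the lowest share in CD133+Nestin+ replicate 2, followed by Nestin+ replicate 2 at 70.4%. The sort markers followed the labels. Nes, the Nestin gene, stood at 39.5, 56.9 and 57.3 CPM in CD133+ libraries and at 157 to 212 in the other 6. Prom1, which encodes CD133, stood at 39.3 to 58.1 CPM in Nestin+ libraries and at 116 to 182 elsewhere. Summed markers of other cells also differed between groups. Microglial markers (7 genes, none near 0 in every library) ranged from 736 to 2210 CPM in CD133+, 27.7 to 83.4 in Nestin+ and 33.2 to 251 in CD133+Nestin+ libraries, and oligodendrocyte precursor markers (6 genes, likewise) from 59.9 to 139, 577 to 1070 and 113 to 451. Endothelial (4 of 6 genes in the table), mural and fibroblast (4 genes) and erythroid markers (3 genes) were highest in CD133+ libraries as well, with sums of 330 to 648, 561 to 1230 and 437 to 853 CPM there, against 14.5 to 35.6, 29.7 to 120 and 13.9 to 189 in the other 6. Tanycyte markers (3 genes) summed to 39.2 to 51.3 CPM in CD133+, 244 to 303 in Nestin+ and 74.9 to 153 in CD133+Nestin+ libraries, and neuron markers (5 genes) to 29.5 to 97.4, 131 to 184 and 55.7 to 141. Radial glia and neural stem markers (7 genes, with Nes and Prom1 among them) summed to 2170 to 6400, 7570 to 13300 and 3740 to 9110 CPM in the same order. In bulk samples such as these, fewer cells of a type and less RNA per cell cannot be told apart, and the part of these cells in the results below was not tested.

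Per length of exon, the members spanned a wide range of levels. Nras had the highest level, with a mean of 104 CPM per kb (range 72.6 to 150 over 9 libraries). Mapk3 followed at 19.2 (11.9 to 26.8), Araf at 13.0 (7.99 to 17.1) and Map2k1 at 11.9 (8.77 to 16.1). Braf had a mean of 4.48 CPM per kb (2.1 to 8.29), Nf1 of 3.25 (2.21 to 5.24) and Hras of 2.31 (0.861 to 3.93). Nras exceeded Mapk3 in 9 of 9 libraries and Map2k1 exceeded Braf in 9 of 9. The other neighbours in this order overlapped in range: Mapk3 exceeded Araf in 8 libraries, Araf exceeded Map2k1 in 7, Braf exceeded Nf1 in 6 and Nf1 exceeded Hras in 7. On this scale Braf, Nf1 and Hras thus formed a low group whose order depended on the library. The length used counts all annotated exons of a gene, whether or not they are expressed here, and the order depends on it. In CPM without the length, Braf and Nf1 overlapped Map2k1 and Mapk3 in range.

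**Figure D1:**
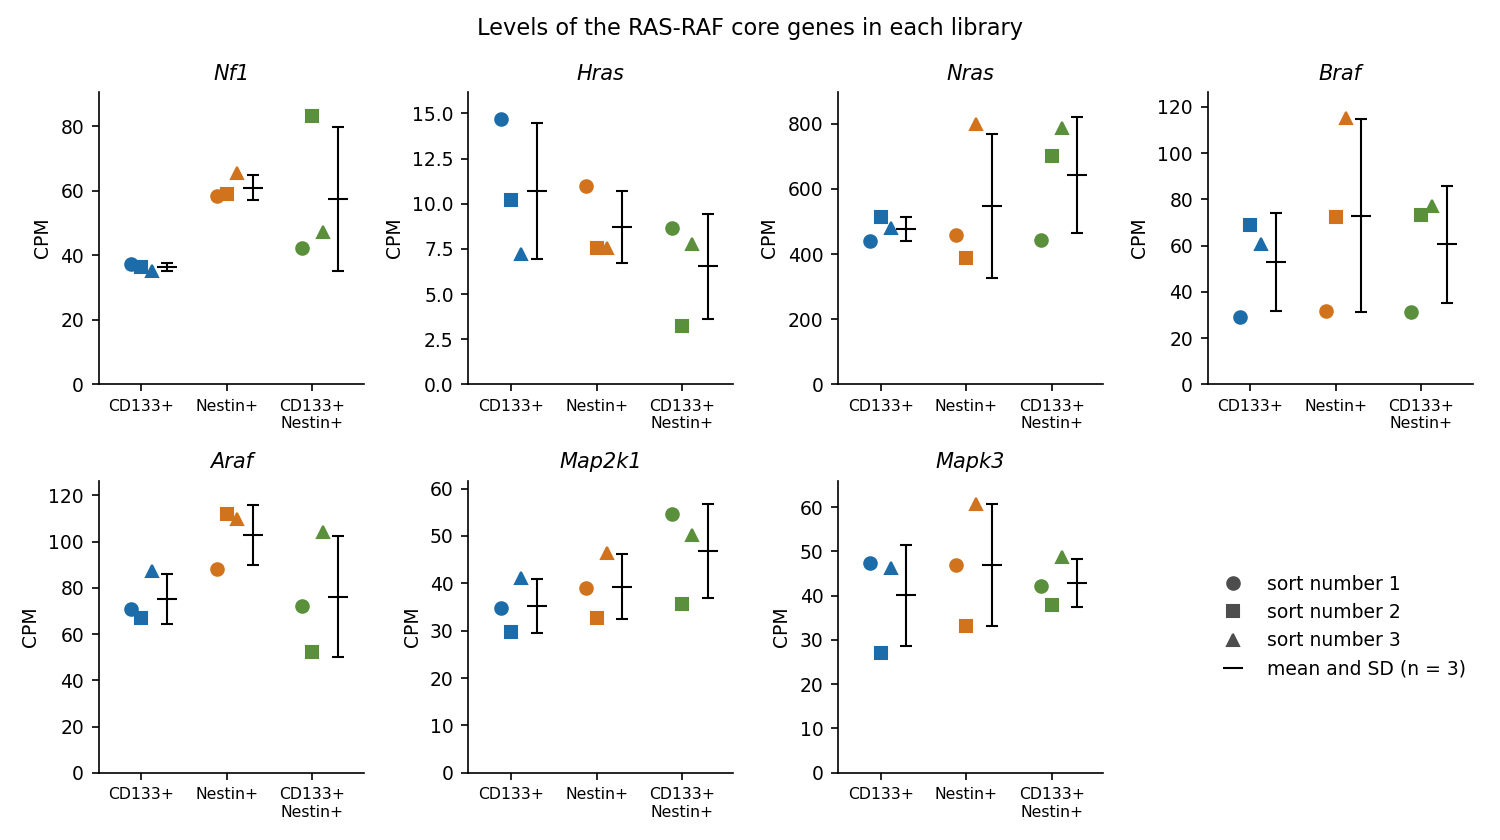
Levels of the 7 genes in each library, in CPM on linear axes that start at 0 and differ between panels. Points are libraries, marker shapes give the sort number and bars show the mean and SD (n = 3). Nf1 stands at 35.0 to 37.4 CPM in CD133+ and at 58.5 to 65.4 in Nestin+ libraries, and Braf is at 29.1 to 31.8 CPM in every library of sort number 1.

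No member passed the threshold in any comparison between populations. The comparisons were made in limma on log2(CPM + 1) over 16143 genes, with Benjamini-Hochberg adjustment and a threshold of 0.05, and differences below are on that scale. In Nestin+ against CD133+, limma called 0 of 7 members, where it called 11.9% of all genes tested, and 1 member had an unadjusted p below 0.05 (23.0% of all genes). Between CD133+Nestin+ and CD133+ it called 0 of 7 (2.42% of all genes), with 0 at an unadjusted p below 0.05 (12.6%). Between CD133+Nestin+ and Nestin+ it called 0 of 7 (3.13%), with 0 at an unadjusted p below 0.05 (13.2%). The F test over the 3 populations called 0 of 7 (9.5% of all genes), with 1 at an unadjusted p below 0.05 (21.0%). In the authors' deposited table, 0 members had a false discovery rate below 0.05 in any of the same comparisons (9.07%, 0.955% and 2.59% of all genes). A p that misses the threshold does not show that levels were equal. The intervals below give the differences these 9 libraries allow under a fit that leaves the sort number in the error.

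**Figure D2:**
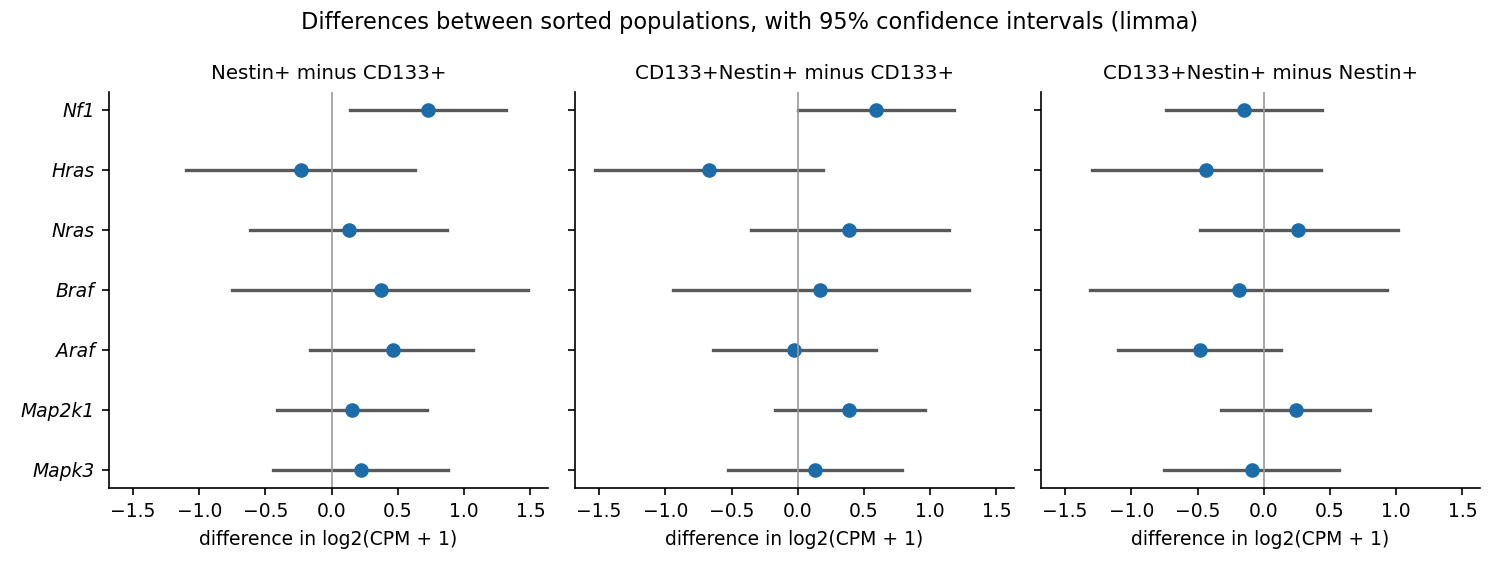
Differences between populations for the 7 genes on the log2(CPM + 1) scale, as the limma estimate (point) and its 95% confidence interval (line). The fit has no replicate block and leaves the sort number in the error. The interval for Nf1 in Nestin+ minus CD133+ runs from 0.14 to 1.32, and Braf has the widest intervals in the first panel, -0.75 to 1.48.

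Nf1, the brake on RAS, was the member with the most separate populations. Its level was 37.4, 36.4 and 35.0 CPM in CD133+ libraries, 58.5, 59.1 and 65.4 in Nestin+ libraries and 42.3, 83.1 and 47.1 in CD133+Nestin+ libraries. The CD133+ libraries lay closest together and below all 6 others, and CD133+Nestin+ replicate 2 was the highest of the 9. The mean of the CD133+ libraries was 36.3 ± 1.17 CPM (SD, n = 3), that of Nestin+ 61.0 ± 3.82 and that of CD133+Nestin+ 57.5 ± 22.3. The Nestin+ mean was 1.68 times the CD133+ mean, and within sorts 1, 2 and 3 the ratio was 1.57, 1.62 and 1.87. The log2 difference was 0.73 (SE 0.27), with an adjusted p of 0.114 in limma, unadjusted p of 0.0197. The authors' deposited table gives a p of 0.0186, a false discovery rate of 0.129 and a ratio of 1.68 for the same pair.

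Whether Nf1 passed depended on a library outside the comparison. The 3 populations share 1 estimate of the spread, to which CD133+Nestin+ replicate 2 contributes. Without that library the difference was again 0.73, and the adjusted p in limma was 0.0176. With only the 6 compared libraries it was 0.0339, and with library weights 0.00323. Of 21 alternative fits, 4 called Nf1, and the adjusted p ranged from 0.00323 to 0.269 with a difference of 0.68 to 0.88. Leaving out any of the 6 compared libraries gave no call. The sums of oligodendrocyte precursor, tanycyte, neuron, and radial glia and neural stem markers were also higher in Nestin+ than in CD133+ libraries. Those of microglial, endothelial, mural and fibroblast, and erythroid markers were lower, with all these sums given above. Ependymal markers were lower as well, with the sums given below. Their part in the Nf1 difference was not tested.

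For CD133+Nestin+ against CD133+, Nf1 differed by 0.59 (SE 0.27, adjusted p 0.402 in limma), and the populations did not overlap. With the replicate block the interval was 0.06 to 1.11 and the adjusted p 0.202 in limma. Without CD133+Nestin+ replicate 2 the difference was 0.29, so the value depended on that library. Against Nestin+ the difference was -0.15, with an interval of -0.74 to 0.44. Populations without overlap were seen for Nf1 and Araf, 2 of 7 members, in Nestin+ against CD133+ (33.0% of all genes), for Nf1 alone in CD133+Nestin+ against CD133+ (17.5%), and for 0 of 7 in CD133+Nestin+ against Nestin+ (17.3%). These counts are not above the share in all genes.

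Of the genes nested in Nf1, Omg, Evi2a and Evi2b differed between the populations, Omg in the opposite direction to the others. Omg, which encodes the oligodendrocyte myelin glycoprotein, stood at 11.4, 4.4 and 9.41 CPM in CD133+, 68.6, 69.8 and 48.0 in Nestin+ and 29.8, 13.6 and 10.1 in CD133+Nestin+ libraries. It rose by 2.81 (SE 0.42, adjusted p 0.00149 in limma) in Nestin+ against CD133+. Evi2a, named for a viral integration site in mouse leukaemia, stood at 73.3, 31.7 and 39.4 CPM in CD133+, 2.9, 3.86 and 2.46 in Nestin+ and 11.9, 10.8 and 1.12 in CD133+Nestin+ libraries. It fell by 3.52 (SE 0.61, adjusted p 0.00355 in limma) in the same comparison. Evi2b, its neighbour, stood at 13.0, 4.39 and 9.17 CPM in CD133+ libraries and between 0.0498 and 1.83 in the other 6. Evi2b fell by 2.78 in Nestin+ against CD133+ (SE 0.46, adjusted p 0.0025 in limma). None of these 3 calls was lost when any 1 library was left out.

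In CD133+Nestin+ libraries Omg fell against Nestin+, and Evi2a and Evi2b fell against CD133+. Omg fell by 1.87 (adjusted p 0.0383 in limma), Evi2a fell by 2.75 (adjusted p 0.0424) and Evi2b fell by 2.62 (adjusted p 0.0123). Leaving out a single library ended the Omg and Evi2a calls in 6 of 9 cases each and the Evi2b call in 3 of 9. Evi2, which spans Evi2a and Evi2b, stood at 0.305 to 2.54 CPM, and the antisense gene AU040972 stood at 0.103 to 6.06 CPM. Neither was called in limma without the replicate block. With the block AU040972 fell by 1.01 in Nestin+ against CD133+ (adjusted p 0.0419 in limma). It was then also 1.53 higher in CD133+Nestin+ than in Nestin+ libraries (adjusted p 0.0159). Per length of exon the mean level in Nestin+ libraries was 27.9 CPM per kb for Omg and 3.85 for Nf1, and in CD133+ libraries it was 21.0 for Evi2a and 2.29 for Nf1. In Nestin+ against CD133+, 5 of 6 oligodendrocyte precursor markers rose in limma, as Omg did, and 3 of 3 tanycyte markers did too (2.45% of all genes were called higher). In the same comparison 7 of 7 microglial markers fell, as Evi2a and Evi2b did (9.42% of all genes were called lower). So did 4 of 4 endothelial, 4 of 4 mural and fibroblast, 3 of 3 erythroid and 6 of 6 ependymal markers. Their part in these differences was not tested.

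**Figure D3:**
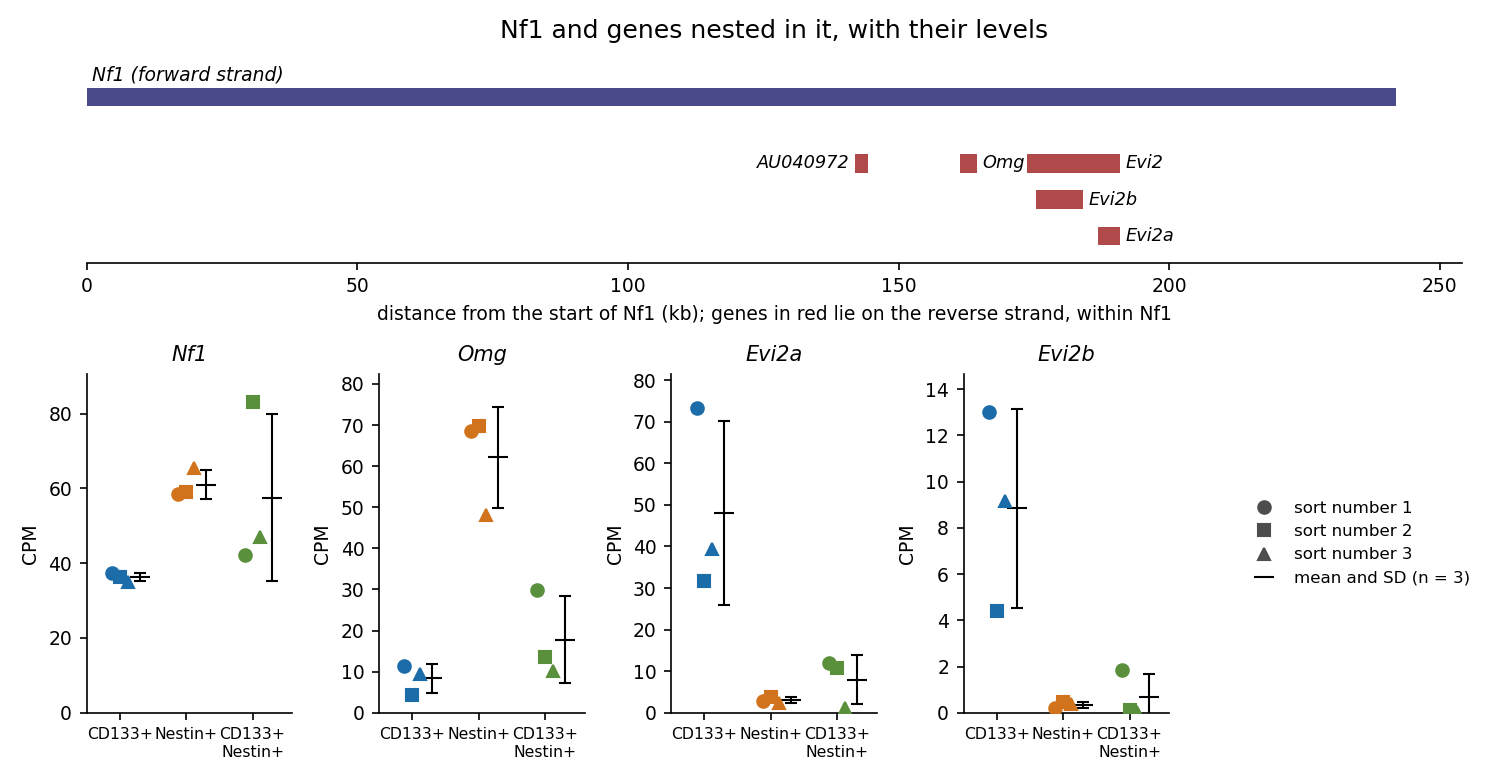
Top, Nf1 and the reverse-strand genes inside it, drawn to scale in kb from the start of Nf1. Bottom, levels in CPM of Nf1, Omg, Evi2a and Evi2b in each library, with the mean and SD (n = 3) and linear axes from 0; Omg is highest in the Nestin+ libraries (48.0 to 69.8 CPM) and Evi2a in the CD133+ libraries (31.7 to 73.3 CPM).

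The RAS genes Hras and Nras encode the membrane GTPases on which neurofibromin acts. Hras stood at 14.7, 10.2 and 7.19 CPM in CD133+, 11.0, 7.56 and 7.55 in Nestin+ and 8.63, 3.21 and 7.75 in CD133+Nestin+ libraries. All populations overlapped, and CD133+Nestin+ replicate 2 was the lowest library. The difference between CD133+Nestin+ and CD133+ was -0.67 (interval -1.53 to 0.19). Without CD133+Nestin+ replicate 2 it was -0.30, and it was not called with or without that library.

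Nras stood at 439, 513 and 480 CPM in CD133+, 457, 387 and 800 in Nestin+ and 443, 700 and 786 in CD133+Nestin+ libraries. The CD133+ libraries were close together, and the highest values were Nestin+ replicate 3 and CD133+Nestin+ replicates 2 and 3. The difference from CD133+ was 0.13 (interval -0.62 to 0.87) in Nestin+ and 0.39 (-0.35 to 1.14) in CD133+Nestin+ libraries. Within a library, the ratio of Hras to Nras ran from 0.00459 to 0.0334, and it was highest in each population in sort 1. The ratio did not differ among populations beyond the spread (exact permutation test of the F statistic over 1680 assignments, p = 0.279, adjusted over 5 ratios 0.464). The ratio of Nf1 to Nras was 0.071 to 0.0851 in CD133+, 0.0817 to 0.153 in Nestin+ and 0.0598 to 0.119 in CD133+Nestin+ libraries (exact permutation p = 0.261, adjusted 0.464).

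Braf and Araf encode serine/threonine kinases that GTP-bound RAS activates. Braf stood at 29.1, 68.9 and 60.8 CPM in CD133+, 31.8, 72.2 and 115 in Nestin+ and 31.2, 73.3 and 77.0 in CD133+Nestin+ libraries. In each population the library of sort number 1 was the lowest, and the populations overlapped throughout. Differences between populations ran from -0.19 to 0.37, with SE 0.51 each in the fit that leaves the sort number in the error. With the replicate block the SE was 0.21 each. The interval for Nestin+ against CD133+ was then -0.1 to 0.84, and Braf was not called.

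The sort number, which equals the passage number in the labels so that the 2 cannot be told apart, separated Braf instead. Its level was 29.1 to 31.8 CPM in the 3 libraries of sort 1, 68.9 to 73.3 in sort 2 and 60.8 to 115 in sort 3. In a limma F test of the sort number with the populations in the fit, chosen after these values were seen, Braf had an adjusted p of 0.0133. Against sort 1 it rose by 1.19 in sort 2 and by 1.38 in sort 3 (SE 0.21 each). It was the only member called of 7, where 8.77% of all genes were called. The adjusted p was 0.118 without Nestin+ replicate 1 and 0.085 without CD133+Nestin+ replicate 1, so 2 of the sort 1 libraries each decided the call. Without CD133+Nestin+ replicate 2, Mapk3 was also called (adjusted p 0.0373). The share of the CPM total held by listed genes moved with the sort as well, at 87.3% to 87.6% in sort 1 and 65.9% to 81.0% in sorts 2 and 3. Rescaled to the listed genes, Braf stood at 33.3 to 36.4 in sort 1 and 76.7 to 148 in the other sorts (adjusted p 0.00605 in limma). Ndufb2, which shares exon bases with Braf, stood at 38.4 to 43.1 CPM in sort 1 and 22.9 to 30.1 in the others, opposite to Braf (adjusted p 0.107 in the same limma test).

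Araf, on chromosome X, stood at 70.7, 67.1 and 87.4 CPM in CD133+, 88.3, 112 and 110 in Nestin+ and 72.1, 52.2 and 104 in CD133+Nestin+ libraries. Nestin+ and CD133+ libraries did not overlap, by the small gap between 87.4 and 88.3 CPM. The difference was 0.46 (SE 0.28, adjusted p 0.391 in limma, 0.123 unadjusted in the authors' deposited table). Of 21 alternative fits, 1 called it, the replicate block without CD133+Nestin+ replicate 2 (adjusted p 0.0483 in limma, range over the alternatives 0.0483 to 0.705). In CD133+Nestin+ against CD133+ it was -0.03 as deposited and 0.10 with median centring, so its sign depended on the scaling. Median centring moved the median of all genes by 0.135 in Nestin+ and 0.128 in CD133+Nestin+ against CD133+. The ratio of Braf to Araf was 0.36 to 0.433 in sort 1 and 0.647 to 1.4 in the other libraries, a range without overlap. Among populations the ratio showed no difference beyond the spread (exact permutation p = 0.871, adjusted 0.871).

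**Figure D4:**
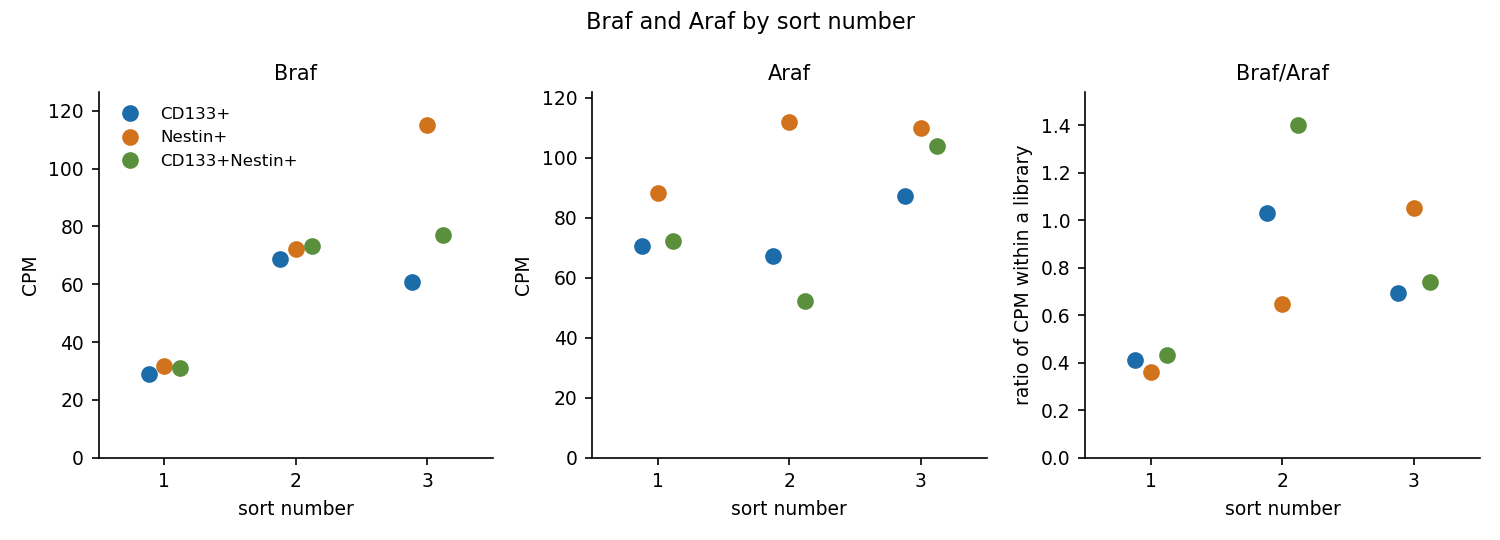
Braf and Araf levels (CPM) and the ratio of the 2 within a library, by sort number on the horizontal axis, 1 point per library coloured by population. All 3 libraries of sort 1 have a Braf to Araf ratio of 0.36 to 0.433, below the 0.647 to 1.4 of the others, while Araf itself shows no such step.

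Map2k1 encodes MEK1, the kinase below RAF, and stood at 34.7, 29.7 and 41.1 CPM in CD133+, 39.0, 32.6 and 46.3 in Nestin+ and 54.6, 35.7 and 50.3 in CD133+Nestin+ libraries. In every population the library of sort 2 was the lowest, and the populations overlapped. In each sort the CD133+Nestin+ library was the highest of the 3. The difference from CD133+ was 0.39 (interval -0.17 to 0.96, adjusted p 0.592 in limma). The ratio of Map2k1 to Map2k2, the gene of MEK2, was 3.5, 3.71 and 3.26 in CD133+Nestin+ libraries, above the 1.57 to 2.51 of CD133+ and the 1.41 to 2.52 of Nestin+ libraries. These ranges did not overlap, yet the exact permutation test gave p = 0.0643 (adjusted 0.321), and permuting within sorts gave an adjusted p of 0.208. The smallest p that the exact tests allow is 0.00357, and 0.0278 within sorts. Neither gene passed in limma alone.

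Mapk3 encodes ERK1, the last kinase of the cascade, and stood at 47.3, 27.0 and 46.2 CPM in CD133+, 47.0, 33.1 and 60.6 in Nestin+ and 42.1, 37.8 and 48.7 in CD133+Nestin+ libraries. As for Map2k1, the sort 2 library was the lowest in each population. Differences between populations were small, at 0.22 (interval -0.44 to 0.88) for Nestin+ and 0.13 (-0.53 to 0.79) for CD133+Nestin+ against CD133+.

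Over the 9 libraries, the members did not follow a shared pattern. The log2 levels of Nras and Braf, and of Map2k1 and Mapk3, had the highest Pearson r of the 21 pairs, at 0.67 each. Nf1 and Hras had the lowest, -0.66. These values are descriptions over 9 libraries that share sorts and scaling. Among about 9406 other genes at a mean of 10 CPM or more, the genes most like Nf1 were Lrp3 (r 0.966), Zfpm2 (0.964) and Fndc3b (0.959). For Braf they were Dhx30 (0.986), Pan2 (0.979) and Snhg20 (0.979), and for Hras Nudt3 (0.981), Rnf11 (0.967) and Hax1 (0.954). Nras was most like Gpr180 (0.97), Ndfip1 (0.967) and Clpx (0.967), and Araf was most like Stk39 (0.965), AW549877 (0.959) and Arhgap26 (0.956). For Map2k1, whose r values were the lowest, the genes were Ctnnbl1 (0.903), Anapc2 (0.9) and Psmd12 (0.894). For Mapk3 they were Prkrip1 (0.941), Unc50 (0.927) and Foxk1 (0.925). Each r was picked as among the highest of about 9406 over 9 libraries, and such picking raises r by itself. Whether these values exceed what picking alone gives was not tested.

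Around these members, a list of 91 other RAS/MAPK pathway genes had 82 in the table and 81 tested. In Nestin+ against CD133+, limma called 6 of the 81 higher (2.45% of all genes) and 5 lower (9.42%), with a median difference of 0.05 beside -0.02 for all genes. With the replicate number as a block, 12 were higher (6.06%) and 9 lower (13.1%). For CD133+Nestin+ against CD133+ limma called 0 of the 81 (2.42% of all genes), with 7 at an unadjusted p below 0.05 (12.6%). With the block 1 was higher (1.12%) and 2 lower (3.69%). For CD133+Nestin+ against Nestin+ 2 were higher (2.87%) and 0 lower (0.254%), and with the block 3 were higher (4.97%) and 3 lower (1.12%).

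The other RAS, RAF, MEK and ERK genes gave 0 calls of 7 in every comparison in limma, with 1, 2 and 0 at an unadjusted p below 0.05 in the order above (23.0%, 12.6% and 13.2% of all genes). The RAS-related gene Rras was the exception under the block. It stood at 8.08, 5.46 and 8.93 CPM in CD133+, 1.96, 1.4 and 4.1 in Nestin+ and 2.39, 0.0664 and 2.07 in CD133+Nestin+ libraries. Its differences from CD133+ were -1.34 (adjusted p 0.107 in limma) and -1.90 (0.0713), and both passed with the replicate block (adjusted p 0.0208 and 0.012).

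Upstream of RAS, 1 of 16 adaptor and exchange factor genes was called in Nestin+ against CD133+, and it was lower (9.42% of all genes were lower and 2.45% higher). Shc1, an adaptor that links receptors to RAS activation, stood at 16.4, 21.2 and 32.1 CPM in CD133+ and at 5.14, 6.92 and 9.96 in Nestin+ libraries, and fell by 1.53 (SE 0.34, adjusted p 0.0131 in limma). With the replicate block 5 of the 16 were called in limma (13.1% of all genes lower and 6.06% higher). Shc1, Rasgrf2 and Rasgrp4 were lower, and Rasgrf1 and Shc3 higher, with block adjusted p values of 0.00172 to 0.0431. The block also called Shc1 in CD133+Nestin+ against CD133+ (fell by 1.27, adjusted p 0.015 in limma). Among 10 genes of other RAS GTPase-activating proteins and neurofibromin partners, 1 was lower and 1 higher. Rasa4, a calcium-regulated GTPase-activating protein gene, stood at 13.0, 21.4 and 14.3 CPM in CD133+, 2.01, 4.58 and 3.79 in Nestin+ and 7.79, 13.2 and 12.0 in CD133+Nestin+ libraries. It fell by 1.97 (SE 0.35, adjusted p 0.00396 in limma) in Nestin+ against CD133+, and with the block it was also higher in CD133+Nestin+ than in Nestin+ libraries. Spred3, of the family whose products bind neurofibromin, stood at 1.14, 0.994 and 1.77 CPM in CD133+ and 3.09, 13.3 and 21.2 in Nestin+ libraries, and rose by 2.26 (SE 0.57, adjusted p 0.025). Leaving out a single library ended the Shc1 call in 3 of 9 cases and the Spred3 call in 5 of 9.

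Of 15 genes of scaffolds and RAF regulators, 1 was called in Nestin+ against CD133+, and it was lower (9.42% of all genes were lower). The scaffold gene Cnksr2 stood at 5.14, 10.5 and 3.94 CPM in CD133+ and 1.34, 1.37 and 0.678 in Nestin+ libraries (fell by 1.74, SE 0.45, adjusted p 0.029 in limma). Leaving out a single library ended that call in 5 of 9 cases. With the block Iqgap1, another scaffold gene, was lower too (fell by 0.72, adjusted p 0.0322 in limma). Among 7 RAS processing genes, Pde6d, which encodes a carrier of prenylated RAS proteins, stood at 79.1, 141 and 84.0 CPM in CD133+, 34.2, 23.5 and 32.4 in Nestin+ and 81.1, 82.1 and 114 in CD133+Nestin+ libraries. Its Nestin+ level was lower than either of the others, by 1.69 against CD133+ (adjusted p 0.00306 in limma). CD133+Nestin+ libraries were 1.59 higher than Nestin+ (adjusted p 0.0132), a call that ended in 2 of 9 cases when a single library was left out.

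In the list of low-grade glioma fusion partners and other drivers, 16 of 19 genes were tested. In Nestin+ against CD133+ 1 was higher (2.45% of all genes) and 1 lower (9.42%). With the block 3 were higher (6.06%) and 1 lower (13.1%), as Ntrk2, a neurotrophin receptor gene (rose by 0.99, adjusted p 0.00883 in limma), and the RNA-binding protein gene Qk (rose by 0.94, adjusted p 0.0138) passed as well. Ntrk2 also passed with the block in CD133+Nestin+ against CD133+ (adjusted p 0.0272 in limma). Myb, a transcription factor gene rearranged in some paediatric low-grade gliomas, stood at 44.9, 105 and 48.7 CPM in CD133+, 4.23, 8.27 and 3.91 in Nestin+ and 28.1, 74.5 and 46.7 in CD133+Nestin+ libraries. It fell by 3.33 (SE 0.43, adjusted p 0.000668 in limma) in Nestin+ against CD133+, and was 2.93 higher in CD133+Nestin+ than in Nestin+ libraries (SE 0.43, adjusted p 0.00512). Neither Myb call was lost when any 1 library was left out. Ependymal markers (6 genes) had the same order, with sums of 889 to 1900 CPM in CD133+, 127 to 163 in Nestin+ and 841 to 1110 in CD133+Nestin+ libraries, and their part in the Myb and Pde6d differences was not tested. Clcn6, a chloride transporter gene known as a BRAF fusion partner, rose by 1.18 in Nestin+ against CD133+ (adjusted p 0.0483 in limma), a call that ended in 6 of 9 cases when a single library was left out. D630045J12Rik, the mouse counterpart of the BRAF fusion partner KIAA1549, stood at 14.1 to 34.5 CPM and was not called.

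Downstream, 4 of 10 transcriptional output and feedback genes rose in Nestin+ against CD133+ and 0 fell, with a list median of 1.11 beside -0.02 for all genes (2.45% higher and 9.42% lower). They were Etv1, Etv4, Etv5 and Spry4. With the replicate block Spry1 and Spry2 passed too, which made 6 higher in limma (6.06% of all genes), and Dusp6, Etv5 and Spry4 were lower in CD133+Nestin+ than in Nestin+ libraries, where 0 of 10 were called without the block. The ETS factor gene Etv1 stood at 31.6, 19.9 and 33.4 CPM in CD133+ and 70.3, 65.2 and 58.3 in Nestin+ libraries, a rise of 1.19 (SE 0.25, adjusted p 0.00887 in limma). Spry4, a feedback inhibitor of receptor signalling, stood at 7.71, 7.33 and 25.8 CPM in CD133+ and 52.5, 52.7 and 49.0 in Nestin+ libraries, a rise of 2.07 (SE 0.43, adjusted p 0.00873). Leaving out a single library ended the Etv5 call in 4 of 9 cases and the calls of Etv1, Etv4 and Spry4 in 0 of 9. Oligodendrocyte precursor markers (5 of 6 called higher, median 3.15), tanycyte markers (3 of 3, median 2.49) and neuron markers (2 of 5, median 1.49) rose in the same comparison. Of 7 radial glia and neural stem markers, Nes and Prom1 among them, 2 were called higher and 1 lower (median 1.29). The part of all these markers in these rises was not tested. The immediate early gene Fos varied with the sort, at 179 to 258 CPM in sort 1, 400 to 530 in sort 2 and 600 to 2310 in sort 3, as did Egr1 (28.2 to 61.9, 103 to 167 and 155 to 378). Both passed the F test of the sort number that Braf passed (adjusted p 0.0158 and 0.0175 in limma). Of the same list, Etv5, Spry2 and Dusp6 passed that limma test too (adjusted p 0.0462, 0.0182 and 0.0322), where 8.77% of all genes did. Etv1, Etv4, Spry1, Spry4 and Ccnd1 did not pass it. The part of these genes in the Braf values was not tested.

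**Figure D5:**
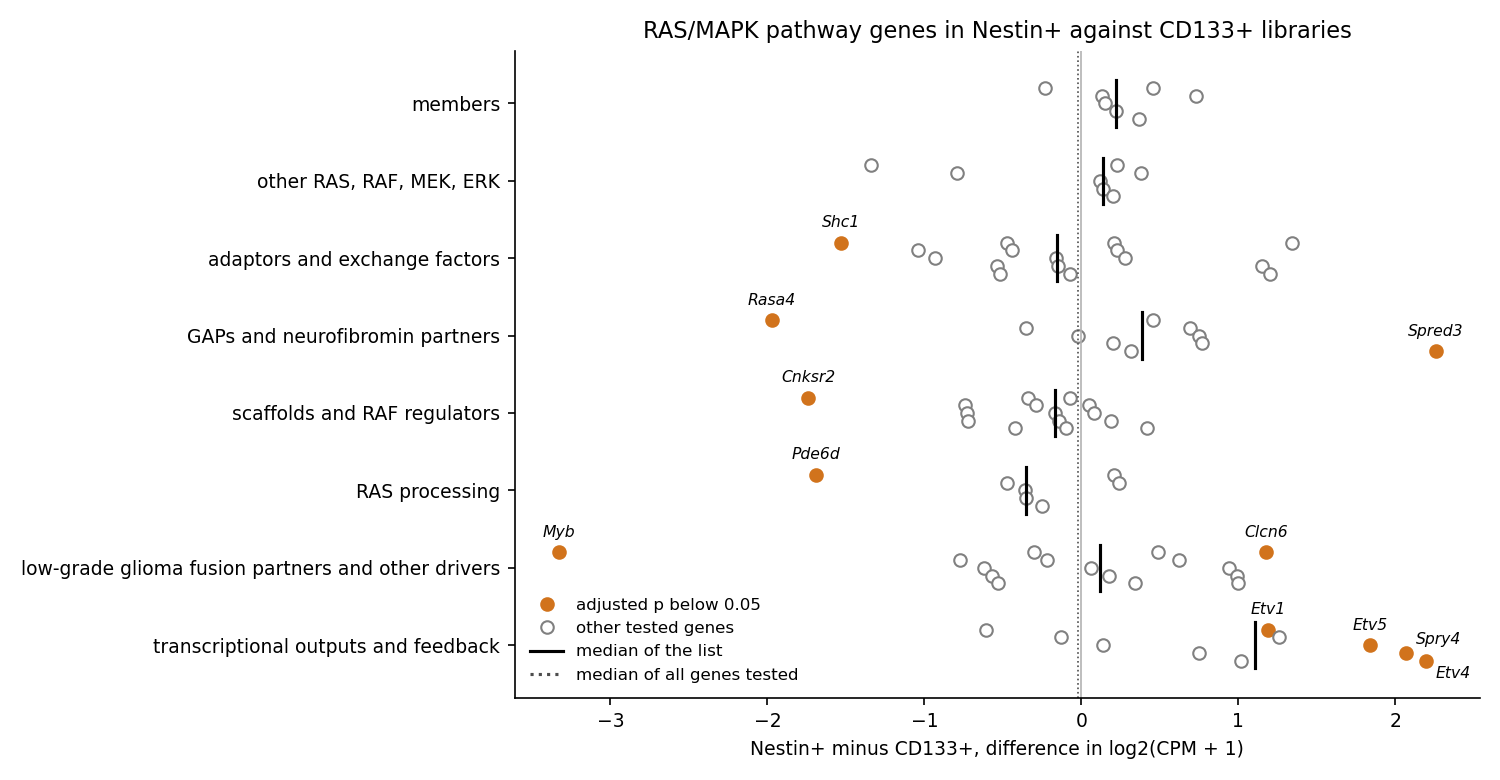
Differences of pathway genes in Nestin+ minus CD133+ on the log2(CPM + 1) scale, 1 row per list and 1 point per gene, with filled points for an adjusted p below 0.05 in limma, a black bar for the list's median and a dotted line for the median of all genes. The 7 members in the top row lie between -0.23 and 0.73 with no filled point, while Myb lies at -3.33 and Spred3 at 2.26.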

How the data were processed

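Per the labels, the 9 libraries hold total RNA read on an Illumina HiSeq. Groups follow the labels' cell population, and the sort number, equal to the passage number, served as the replicate number. Whether the 3 libraries of a group stem from different animals is not stated, and p-values therefore reflect only how these libraries vary, which may be technical.

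Per the submitters' processing notes, which give no role or order, the tools and build were bcl2fastq, STAR 2.5.3a, Partek 8.0, limma and mm10. Annotation, strand setting and filters: not given in the sources used here. The normalized values deposited by the authors carry no unit and were inferred from their steps to be CPM with an offset of 0.0001. A second table deposited by the authors holds p-values, step-up false discovery rates and a ratio for each pair of groups.

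Values were transformed to log2(CPM + 1). A gene was tested if 3 or more libraries reached 1 CPM, which kept 16143 of 18329 genes and all 7 members. One limma model (version 3.58.1, R 4.3.3) held all 3 groups, with a trended and robust prior on the variance (6 residual and a median of 4.93 prior degrees of freedom) and Benjamini-Hochberg adjustment over all genes at 0.05. The procedure was also run on simulated data, with noise drawn separately for each library and no effect of the sort number. That run therefore cannot show how the fit without the block behaves when libraries share a sort. Ratios of gene pairs within a library were tested by exact permutation in Python 3.11.15.

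The replicate numbers were taken to pair the samples. Libraries of the same number deviated from their group means together (r 0.204 to 0.73 across genes in 9 pairs). Those of different numbers had r of -0.527 to 0.314, a range that overlaps the first. Deviations from a group's mean sum to 0, which pushes the second range down when the first is positive. The second range is therefore no separate support for the pairing. The labels give the sort number that libraries of different populations share. They do not state that libraries of the same number came from the same animals. For members, genes that overlap them and pathway genes, the blocked fit is given where it changes a call or moves a count of calls by over 1.5 times. It is also given for the Braf differences and for Nf1 against CD133+. Counts of called markers and counts at an unadjusted p below 0.05 come from the fit without the block. Some of these counts were higher with the block.

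The members, the pathway and marker lists and the tests were chosen with earlier results of these data known. Named were all members, genes that overlap them, called pathway genes (up to 4 a list by F-test p), the other RAS, RAF, MEK and ERK genes, and for each member the 3 genes of highest r. Pathway genes that passed with the replicate block but not without it fall outside this rule, except Rras, and were named after their values were seen. Some genes that this rule takes, and 1 of the 5 ratios, are not reported here. Gene positions and exon lengths come from GENCODE M21, which matched 18219 of 18327 symbols, and promoters from RefSeq (GRCm38.p6).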

Additional observations from a re-analysis of the deposited data

How the results depend on the processing

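Precision rests on 3 libraries a group, and most members' intervals span differences near 0, so signs turned easily. The results were recomputed with the replicate block, with library weights, with quantile normalization or median centring, with a pseudocount of 0.1, with a filter of 5 CPM or none, without the trended and robust prior, leaving out each library, only libraries 2 and 3, only the compared libraries and, chosen after seeing the data, rescaling to the listed genes and the block without CD133+Nestin+ replicate 2. The replicate block changed no member's call. The causes of the changes below were not tested.

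Signs turned as follows. With library weights the log2 difference in Nestin+ against CD133+ was 0.05 for Hras, -0.05 for Map2k1 and -0.03 for Mapk3, that of Braf in CD133+Nestin+ against CD133+ was -0.13, and that of Mapk3 in CD133+Nestin+ against Nestin+ was 0.03. With libraries 2 and 3 alone Nf1 differed by 0.01 between CD133+Nestin+ and Nestin+. In CD133+Nestin+ against CD133+, Araf differed by 0.10 (median centring), 0.05 (quantile), 0.04 (rescaled) and 0.21 (block without CD133+Nestin+ replicate 2), and Mapk3 by -0.03 under the last. Leaving out 1 library gave, in Nestin+ against CD133+, -0.47 to 0.00 for Hras, -0.18 to 0.34 for Nras, -0.05 to 0.86 for Braf and -0.04 to 0.44 for Mapk3. In CD133+Nestin+ against CD133+ it gave -0.20 to 0.59 for Braf, -0.28 to 0.21 for Araf and -0.13 to 0.27 for Mapk3. Against Nestin+ it gave -0.44 to 0.04 for Nf1, -0.69 to 0.22 for Braf and -0.32 to 0.11 for Mapk3.

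Members called in Nestin+ against CD133+ numbered 1 with library weights, 1 with only the 6 libraries, 2 with the block without CD133+Nestin+ replicate 2, and 0 to 1 leaving out 1 library. The F test called 1 with weights and 1 with that block. The sort number called 0 to 2 members leaving out 1 library. Pathway genes called in Nestin+ against CD133+ numbered 21 with the block, 28 with weights, 33 with the block without that library and 6 to 16 leaving out 1 library. In CD133+Nestin+ against CD133+ they numbered 3, 2, 3 and 0 to 1 in that order, and against Nestin+ 6 with the block, 4 with median centring, 8 with the block without that library and 1 to 4 leaving out 1 library. Exact tests of ratios permuted within sorts, the form of the replicate block for them, gave adjusted p values of 0.208 to 0.694.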
